A study of Mus musculus with 24 samples.

Results

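The comparison described here set the 3 mammary gland arrays taken 28 h after the first progesterone injection against the 3 taken 4 h after it, that is, 6 arrays of the 24 in the series. The arrays were chosen by their labelled treatment and time alone. The mice were nulliparous Balb/c females, ovariectomized at 6 weeks of age and rested for 2 weeks so that ovarian hormones were cleared. Progesterone-treated mice received 1 mg of progesterone (P4) in 100 µl of sesame oil under the skin every day, and the oil mice received the same volume of sesame oil alone and were killed at the same times. The other groups of the series were taken at 16 h and 76 h. Each array held RNA pooled from 5 mice, so that a group of 3 arrays stood for 15 mice. The tissue was whole mammary gland, in which a lower level from fewer cells of a type and a lower level from less RNA per cell cannot be told apart. Ovariectomized animals have no cyclic oestrogen, and the oil arrays share that state with the progesterone arrays.

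On a daily schedule both progesterone groups were killed about 4 h after an injection, 24 h apart. The comparison therefore asks how the gland shortly after the first dose differs from the gland at the same interval on the next day. Time since the first injection, the number of injections and the day of handling cannot be told apart within it. The shift of the oil arrays over the same interval is given beside most results as the background.

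Progesterone acts through the progesterone receptor, a nuclear receptor that binds DNA as a dimer and is made in a subset of luminal cells of the mammary ducts. These sensor cells are known to signal to neighbouring luminal and basal cells through secreted factors, among them Wnt4 and the cytokine RANKL (Tnfsf11), and basal (myoepithelial) cells form the contractile outer layer of the duct. The receptor also lowers its own messenger in many tissues after hormone binding.

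Among the 12353 genes tested, 52 were called between 4 h and 28 h of progesterone, at an adjusted p under 0.05 in a limma model over all 24 arrays, which is 0.421% of the genes. There were 27 genes higher at 28 h (0.219%) and 25 lower (0.202%). That balance was not stable: it was 24 higher and 9 lower without progesterone 28 h replicate 2, 30 and 77 without replicate 3 of that group, 15 and 7 without progesterone 4 h replicate 2, and 29 and 14 when the probe sets of each gene were averaged. Genes that stood far above oil 4 h after the first dose fell (Aldh3a1, Fgg, B3gnt7, Cntnap2). The receptor Pgr and the epithelial genes Slc12a2, Foxa1 and Aqp5 rose. The called rises also held 4 of the 22 basal and myoepithelial genes tested (Krt17, Egr2, Krt5, Cnn1). The median size of the change over the 52 genes was 0.76 on the log2 scale, and 12 of them moved by more than 1 on that scale, as did 39 of all genes tested. The median over all genes was -0.03. Of the 52, 6 were above their arrays' median intensity at 1 of the 2 progesterone times but at no array of the other (Csn2, Krt17, Mmp11, B3gnt7, Cntnap2, Aldh3a1). All 52 called genes had progesterone arrays that did not overlap between the times, as did 14.2% of all genes tested.

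Under oil, 472 genes were called over the same 24 h (3.82%), 59 higher at 28 h (0.478%) and 413 lower (3.34%). Which treatment had more calls depended on weighting: with array weights there were 3273 under progesterone and 2253 under oil. The size of the gap depended on 1 array: without progesterone 4 h replicate 3 there were 513 under progesterone and 532 under oil. The difference of the shifts (progesterone minus oil) was called for 54 genes (0.437%), 48 with the higher shift under progesterone (0.389%) and 6 with the lower (0.0486%). Of the 52 progesterone calls, 13 were also called under oil, 11 of them in the same direction, which is 21.2% of the progesterone calls and 2.33% of the oil calls. The difference of the shifts was called for 13 of the 52, and 28 were called neither under oil nor for the difference. The count of different shifts was 20 when replicate 1 of either the 4 h oil or the 28 h progesterone arrays was dropped, 27 and 32 without progesterone 4 h replicates 1 and 2, and 31 and 33 without oil replicate 2 of 4 h and of 28 h. It was 107 without progesterone 4 h replicate 3, 99 without oil 28 h replicate 3 and 89 without progesterone 28 h replicate 2. The oil count was 223 without oil 4 h replicate 1. Over all 12353 genes the shifts under progesterone and under oil, which share no array, correlated at Pearson r = 0.32 and Spearman rho = 0.30. These are values across genes, which are not independent replicates. Of the 413 genes that fell under oil, 354 (85.7%) were also below 0 under progesterone, against 55.8% of all genes tested.

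**Figure D1:**
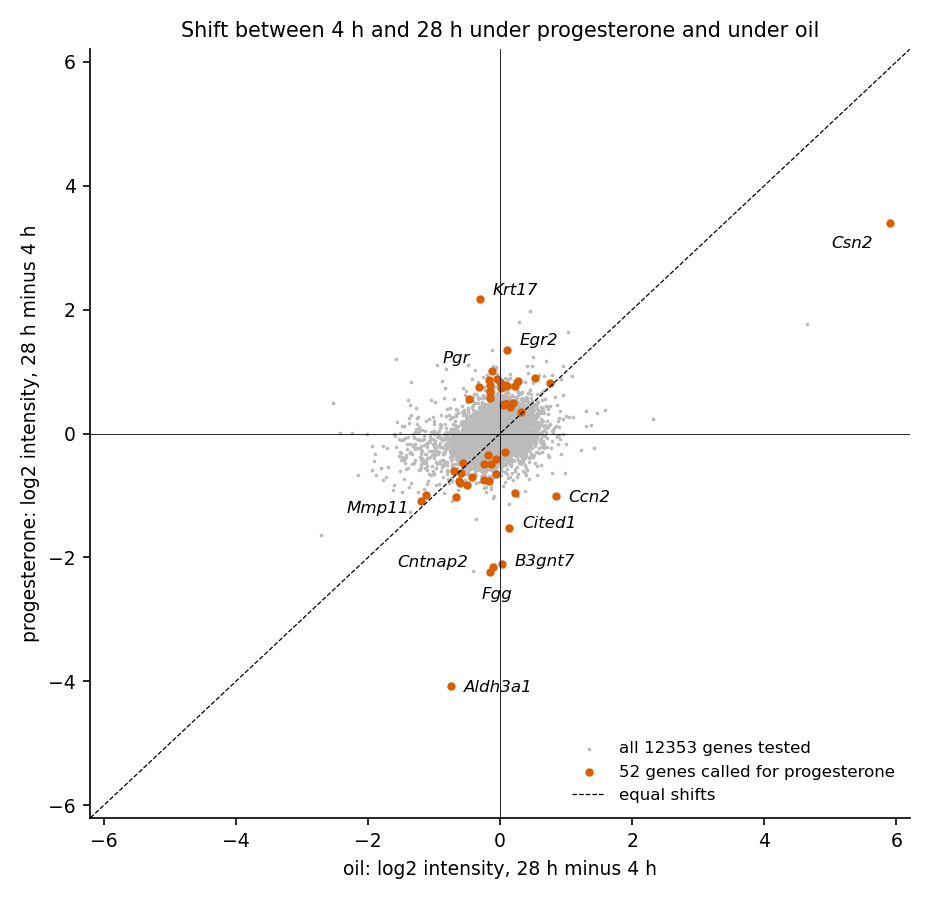
Each grey point is 1 of the 12353 genes tested, placed by its log2 difference between 28 h and 4 h under oil (x axis) and under progesterone (y axis). Orange points are the 52 genes called for progesterone, and the dashed line marks equal shifts; Csn2 lies to the far right at 5.90 and 3.40, values set in part by the floor, while Aldh3a1, Fgg, Cntnap2 and B3gnt7 lie low near the y axis.

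The 6 arrays had similar overall brightness, with median intensities from 65.6 to 66.3 at 4 h and from 66.6 to 66.9 at 28 h. Replicate 3 of the 4 h progesterone group stood apart: it correlated with replicates 1 and 2 at r = 0.980 and r = 0.978 across genes, while those 2 correlated at r = 0.991. Markers of skeletal muscle (21 of 22 listed genes tested) summed to between 25940 and 55468 intensity units at 4 h and between 23693 and 53872 at 28 h, lowest in replicate 3 at 4 h and in replicate 2 at 28 h. B and plasma cell genes (17 of 18 tested) summed to between 19094 and 30129 at 4 h and between 19589 and 27240 at 28 h, highest in the same 2 arrays. Without those 2 arrays, an alternative chosen after seeing the data, 200 genes were called, 150 of them higher at 28 h, and 44 of the 52 stayed called. Without replicate 3 of 4 h alone, 513 genes were called, including all 52. The ratio of the 3′ to the 5′ Gapdh control probe sets, a sign of RNA quality, was 0.00093 to 0.34 (log2) on the progesterone 4 h arrays and -0.112 to -0.069 at 28 h, without overlap. The same ratio for the actin control probe sets overlapped, at 0.506 to 0.590 at 4 h and 0.409 to 0.548 at 28 h of progesterone. With the Gapdh ratio as a covariate, also chosen after seeing the data, 2 of the 52 stayed called, Aldh3a1 and Slc12a2. In that model 520 genes were called under oil and 17 for the difference of the shifts, 13 of them among the 54. Defining markers of the labelled tissue were above the array median on all 6 arrays: Krt8 (684 to 1662) and Krt18 (1524 to 2535) of luminal cells, Krt14 (294 to 603) and Acta2 (3952 to 5231) of basal cells and Adipoq (10500 to 11939) of fat.

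Single arrays weighed heavily on the count. It was 11 without replicate 1 and 22 without replicate 2 of progesterone 4 h, and 17, 33 and 107 without replicates 1, 2 and 3 of progesterone 28 h. Among the other arrays, leaving out oil 28 h replicate 3 moved it most, to 96. The genes that stayed called without any 1 of the 24 arrays were 10: Aldh3a1, B3gnt7, Ccn2, Cited1, Csn2, D17H6S56E-5, Fgg, Sdc1, Slc12a2 and Tpgs1. The other 42 lost their call without at least 1 array. With quantile normalization of the arrays 87 genes were called, 35 higher and 52 lower. The plot of calls without each array shows the dependence.

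**Figure D2:**
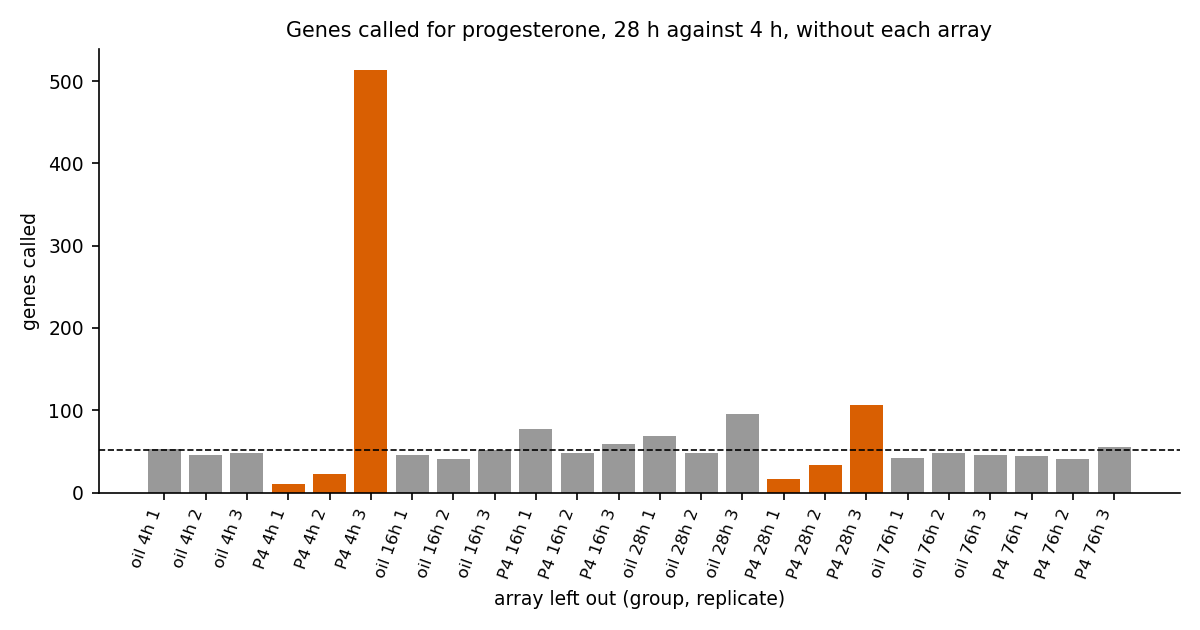
Number of genes called between 4 h and 28 h of progesterone (y axis) when the array named on the x axis is left out; orange bars are the 6 progesterone arrays compared, grey bars the other 18, and the dashed line is the count of 52 with all arrays. The bars run from 11 (progesterone 4 h, replicate 1) to 513 (progesterone 4 h, replicate 3).

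The genes that fell most had been far above oil 4 h after the first dose. Aldh3a1, an aldehyde dehydrogenase that clears reactive aldehydes, read 580, 418 and 374 on the 4 h progesterone arrays and 27.0, 20.0 and 35.2 at 28 h. Every 28 h array lay below every 4 h array, and the oil means were 32.9 ± 9.94 at 4 h and 19.4 ± 4.61 at 28 h (SD, n = 3 each). The ratio of the fitted levels was 16.8-fold, or -4.07 ± 0.285 on the log2 scale (SE, adjusted p = 8.7e-09), and it differed from the oil shift of -0.74 by -3.33 (adjusted p = 0.00024). Aldh3a1 was the only gene called under all 39 alternatives that gave each gene 1 value.

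Fgg, which encodes the gamma chain of fibrinogen, read 307, 516 and 273 at 4 h and 80.4, 61.8 and 84.5 at 28 h. The 2 sets of arrays were well apart, and the 28 h values lay within the range of the 4 h oil arrays, 47.7 to 91.5. The fall was 4.69-fold (log2 -2.23 ± 0.263, SE; adjusted p = 0.00010), against -0.15 under oil, and the shifts differed by -2.08 (adjusted p = 0.011).

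B3gnt7, a Golgi enzyme that extends sulphated sugar chains, read 305, 222 and 152 at 4 h and 59.6, 41.7 and 52.2 at 28 h. Its 28 h mean of 51.2 ± 9.0 stayed above the oil mean of 26.4 ± 8.36 at that time. The log2 fall of -2.10 (adjusted p = 0.00079) differed from the oil shift of 0.03 by -2.13 (adjusted p = 0.016). Cntnap2, a cell adhesion protein of the neurexin family, read 219, 153 and 77.0 at 4 h and 31.6, 19.4 and 48.0 at 28 h. It fell by 2.15 on the log2 scale (adjusted p = 0.0038), and its difference from the oil shift of -0.11 was -2.04 (adjusted p = 0.088), which did not pass.

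Aldh3a1, B3gnt7 and Cntnap2 were above the array median on the 4 h progesterone arrays and on no array of the other groups, so that they entered the test only through the group in which they were high. Their 28 h levels lie below the array median, where the size of a fold is uncertain. With no filter on low values they were still called (adjusted p = 9.97e-08, 0.00201 and 0.00844 in that order), and with a pseudocount of 16 the log2 differences were -3.44, -1.81 and -1.70.

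The 4 genes Aldh3a1, Fgg, B3gnt7 and Cntnap2 belong to a list of 18 first-dose genes that was chosen on these same 4 h arrays, so that its counts are not independent evidence of their direction. Of those 18 genes, 4 fell (Aldh3a1, Fgg, Cntnap2, B3gnt7), 4 rose (Pgr, Tpgs1, Slc12a2, Lmo4) and the other 10 did not pass, with a list median of -0.36. Values that did not pass included Wfdc12 at -0.96 (adjusted p = 0.093), Acot1 at -0.79 (adjusted p = 0.19), Mboat1 at -0.52 (adjusted p = 0.23) and Ly6d at 0.07 (adjusted p = 0.90). Acot1, a thioesterase of fatty acid metabolism, still read 385, 160 and 289 at 28 h under progesterone against 78.6, 140 and 107 under oil.

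The sequences upstream of such genes were searched for DNA elements of the steroid receptors that bind a shared motif, the progesterone and glucocorticoid receptors among them. The first transcript start of a gene in RefSeq (build GRCm38.p6) was used, with the 250 bases before it. The core hexamer was AGAACA on either strand (TGTTCT on the other), and the palindrome was GNACA and TGTNC with 3 bases between them, which can overlap the hexamer. Of 52 called genes 37 had an entry; 4 of these (10.8%) held the hexamer, against 4369 of 27025 genes (16.2%), and 1 held the palindrome, against 103 (0.381%). The promoters of 3 of the 4 genes that fell most and of Mt1, the called gene with the palindrome, are shown 5′ to 3′, with matches in capitals.
Fgg, chr3:83007474-83007723, plus strand: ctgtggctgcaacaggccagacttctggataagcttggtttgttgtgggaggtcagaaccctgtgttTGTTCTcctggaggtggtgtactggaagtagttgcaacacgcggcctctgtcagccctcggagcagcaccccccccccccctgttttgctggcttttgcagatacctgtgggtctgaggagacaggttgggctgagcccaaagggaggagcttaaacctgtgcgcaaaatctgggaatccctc
B3gnt7, chr1:86302971-86303220, plus strand: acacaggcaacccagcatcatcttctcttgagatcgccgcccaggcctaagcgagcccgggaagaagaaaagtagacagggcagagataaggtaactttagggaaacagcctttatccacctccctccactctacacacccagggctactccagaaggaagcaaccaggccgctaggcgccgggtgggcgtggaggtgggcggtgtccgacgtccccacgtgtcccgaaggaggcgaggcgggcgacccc
Cntnap2, chr6:45059811-45060060, plus strand: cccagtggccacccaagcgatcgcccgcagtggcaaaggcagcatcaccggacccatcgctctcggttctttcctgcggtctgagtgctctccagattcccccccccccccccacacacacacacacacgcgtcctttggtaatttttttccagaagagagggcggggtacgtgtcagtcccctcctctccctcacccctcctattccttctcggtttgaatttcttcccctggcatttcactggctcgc
Mt1, chr8:94178839-94179088, plus strand: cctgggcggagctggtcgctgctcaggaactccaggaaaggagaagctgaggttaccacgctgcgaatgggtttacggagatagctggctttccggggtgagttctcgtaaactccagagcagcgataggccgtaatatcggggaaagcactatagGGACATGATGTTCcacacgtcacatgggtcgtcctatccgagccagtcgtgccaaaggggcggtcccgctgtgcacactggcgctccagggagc
Fgg held the hexamer 183 bases before its start, and neither pattern occurred in these windows of B3gnt7 and Cntnap2. Mt1, a metallothionein that binds zinc and copper, held the palindrome starting 94 bases before its start. It read 3683, 4018 and 3240.1 at 4 h and 2922, 2787 and 2465 at 28 h, a fall of 0.42 on the log2 scale (adjusted p = 0.0497) that was called under 13 of the 39 alternatives. The oil shift was -0.07, and the difference of -0.35 did not pass (adjusted p = 0.36). A match is a run of letters, and binding was not measured.

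Other falls went from at or above oil to below it. Cited1, a transcriptional co-regulator known from hormone-sensing ductal cells, read 541, 602 and 591 at 4 h and 306, 118 and 224 at 28 h, while oil stayed between 345 and 436. The fall of 1.52 (adjusted p = 0.00096) differed from the oil shift of 0.14 by -1.67 (adjusted p = 0.013). Rassf6, a Ras-association protein of the Hippo pathway, read 299, 248 and 200 at 4 h and 116, 115 and 150 at 28 h (log2 -0.96, adjusted p = 0.0038; difference from oil -1.19, adjusted p = 0.014). Both ended below every oil array of 28 h.

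Ccn2, a secreted matricellular protein also called connective tissue growth factor, moved in opposite directions in the 2 treatments. It read 499, 641 and 514 at 4 h and 234, 249 and 349 at 28 h under progesterone, but 573, 555 and 550 at 4 h and 954, 1030.0 and 1039.7 at 28 h under oil. The ranges of the treatments overlapped at 4 h and were far apart at 28 h. The shifts were -1.004 under progesterone (adjusted p = 0.0038) and 0.85 under oil (adjusted p = 0.0032), and their difference was -1.85 (adjusted p = 0.00024). Ier3, an immediate early gene tied to cell survival, did the reverse, with 149, 153 and 147 rising to 258, 195 and 213 under progesterone (log2 0.56, adjusted p = 0.044) and a fall of 0.48 under oil (adjusted p = 0.030). Its difference was 1.03 (adjusted p = 0.0094).

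A set of rises started from levels below oil. Pgr, the progesterone receptor itself, read 87.8, 99.9 and 69.0 at 4 h and 182, 110 and 244 at 28 h. The arrays did not overlap, although replicate 2 at 28 h lay close to the 4 h arrays. The level rose 2.00-fold (log2 1.00 ± 0.208, SE; adjusted p = 0.026) yet remained under the oil means of 464 ± 46.6 at 4 h and 426 ± 19.4 at 28 h. The difference from the oil shift was 1.12 (adjusted p = 0.12), which did not pass. The mean was 170 ± 19.9 at 16 h and 279 ± 29.7 at 76 h of progesterone.

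Slc12a2, the basolateral sodium-potassium-chloride cotransporter of secretory epithelia, read 1412, 1417 and 1164 at 4 h and 2541, 1909 and 2341 at 28 h. The rise was 1.70-fold (log2 0.76, SE 0.10; adjusted p = 0.00042), with an oil shift of 0.23 and a difference of 0.53 (adjusted p = 0.12). Foxa1, a pioneer factor of hormone receptor-positive luminal cells, read 486, 642 and 468 at 4 h and 1087, 652 and 1054 at 28 h. Replicate 2 at 28 h was barely above the highest 4 h array. The log2 rise was 0.78 (adjusted p = 0.016), with an oil shift of 0.06 and a difference of 0.72 (adjusted p = 0.20). The 20 luminal genes tested summed to between 8336 and 9232 at 4 h and between 8065 and 13264 at 28 h, overlapping and lowest in that same array, and the part of luminal cell content in these rises was not tested.

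Aqp5, a water channel of glandular epithelia, read 292, 286 and 311 at 4 h and 720, 405 and 547 at 28 h. Its rise of 0.87 (adjusted p = 0.0051) brought it from under the oil mean of 442 ± 29.0 to 557 ± 158. The difference from the oil shift of -0.05 was 0.92 (adjusted p = 0.056), which did not pass. Tpgs1, a subunit of the tubulin polyglutamylase complex, rose by 0.84 (adjusted p = 0.0038), and its difference from the oil shift of -0.01 was 0.84 (adjusted p = 0.047). Lmo4, a LIM-domain co-regulator of the mammary epithelium, rose by 0.47 (adjusted p = 0.032), from 553 ± 66.2 to 760 ± 14.2, beside oil means of 785 ± 58.5 and 808 ± 57.6. For Lmo4 the difference of the shifts was 0.42 (adjusted p = 0.27), which did not pass. In all, 14 of the 27 rises and 15 of the 25 falls lay closer to their own oil group at 28 h than at 4 h. That count rests on the same arrays as the calls. The share over all genes tested was not counted, so no reading is drawn from it.

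**Figure D3:**
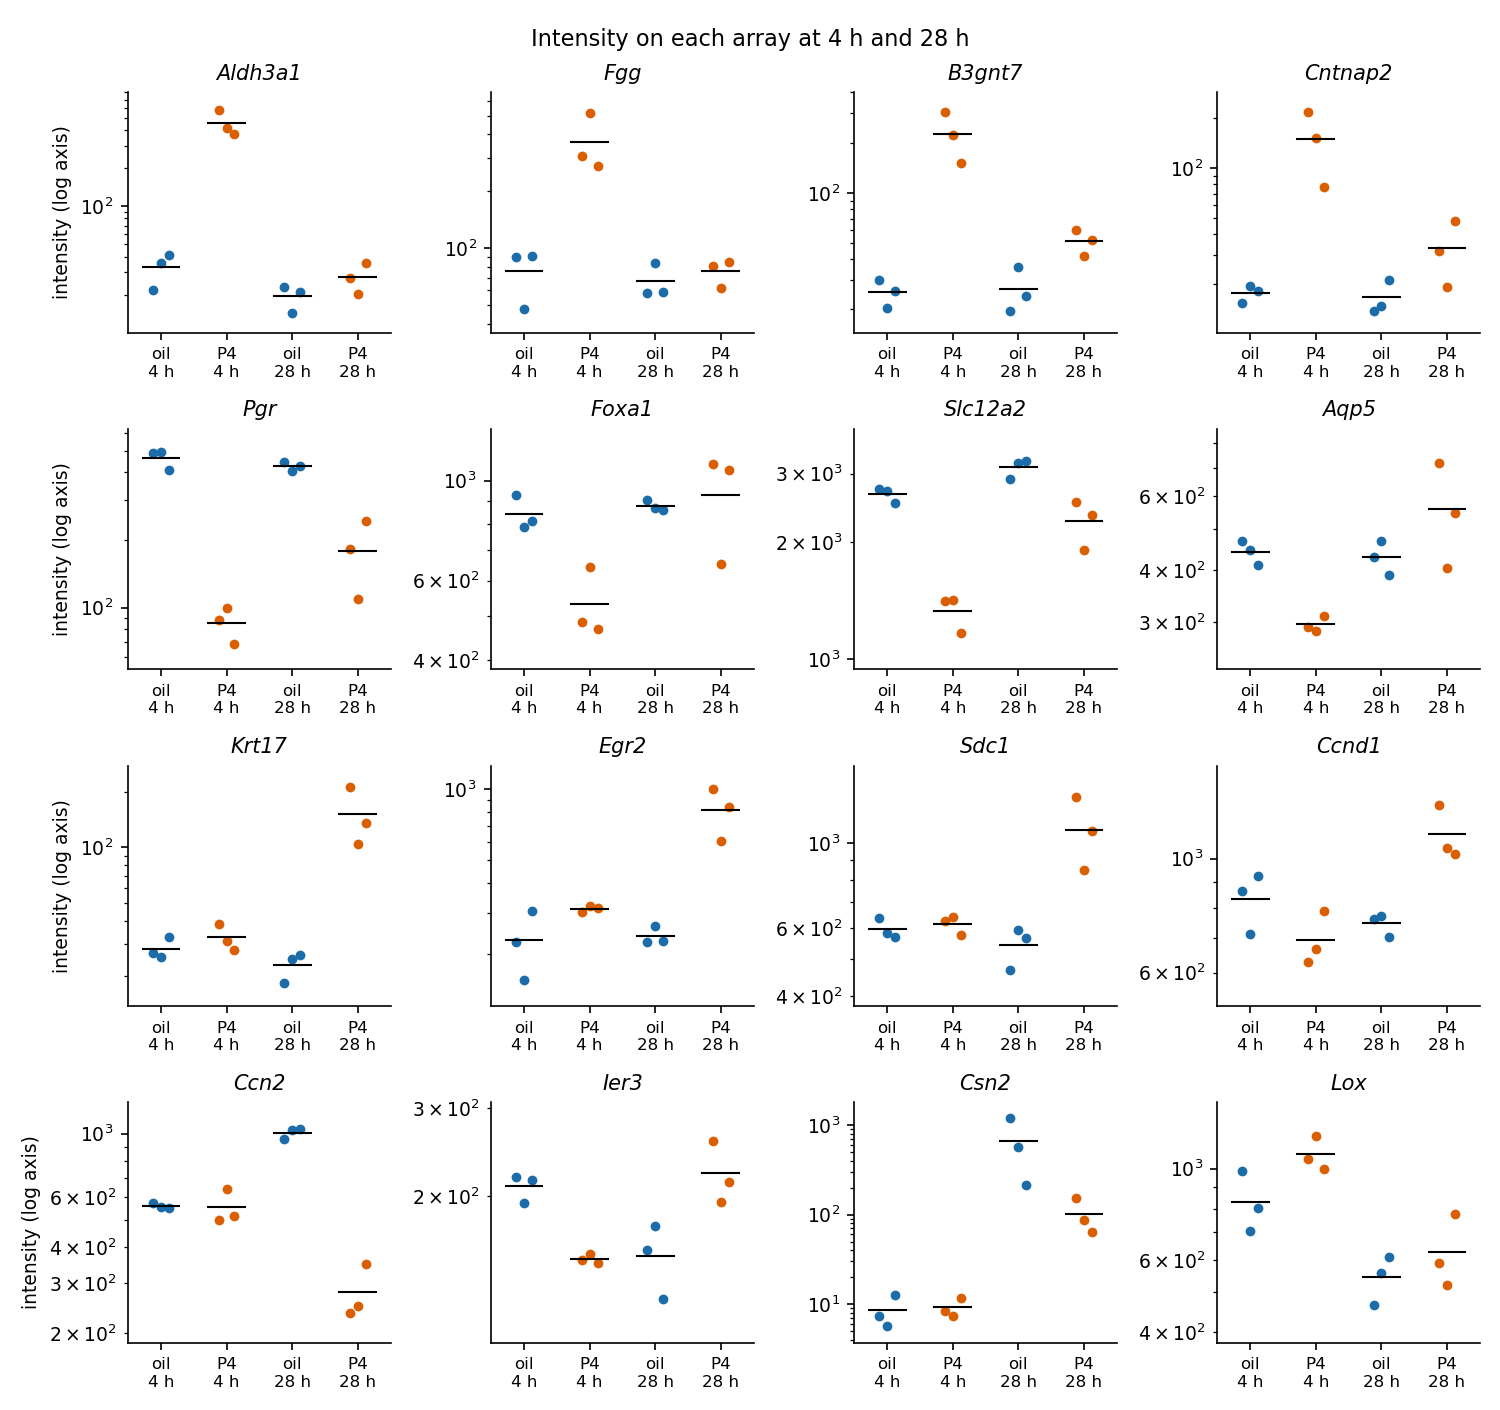
Intensity on each of 12 arrays for 16 genes, on log axes whose range differs by gene; blue points are oil arrays, orange points progesterone arrays and black lines the group means (n = 3). Aldh3a1, Fgg, B3gnt7 and Cntnap2 are highest in the 4 h progesterone group, Pgr and Slc12a2 are lowest there, and Krt17, Egr2, Sdc1 and Ccnd1 are highest at 28 h of progesterone.

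Several genes of the basal layer were higher at 28 h. Of 22 basal and myoepithelial genes tested, 4 rose (Krt17, Egr2, Krt5, Cnn1) and none fell, while 18 did not pass. The list median was 0.19 under progesterone and -0.16 under oil, beside medians over all genes of -0.03 and -0.05. Under progesterone 15 of the 22 shifts were positive, and the lowest was -0.44. An unadjusted limma p under 0.05 was found for 8 of the 22, beside 1659 of the 12353 genes tested. The summed list ranged from 12105 to 12860 on the 4 h progesterone arrays and from 13421 to 16348 at 28 h, without overlap, while the oil sums ranged from 12209 to 13042 and from 11720 to 12526. Fewer or more basal cells and less or more RNA per cell are not separated by these sums.

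Krt17, a basal keratin, read 38.6, 31.2 and 27.6 at 4 h and 213, 104 and 134 at 28 h. The rise was 4.48-fold (log2 2.16 ± 0.404, SE; adjusted p = 0.011), while oil moved by -0.30, and the difference of 2.46 just missed the threshold (adjusted p = 0.055). Its 28 h mean of 150 ± 56.0 was preceded by 114 ± 19.0 at 16 h of progesterone. Krt5, the keratin that defines the basal layer, read 206, 204 and 195 at 4 h and 503, 305 and 321 at 28 h (log2 0.86, adjusted p = 0.0081). Its difference from the oil shift was called at 1.03 (adjusted p = 0.030). Cnn1, a calponin of contractile cells, read 120, 162 and 133 and then 243, 216 and 292 (log2 0.85, adjusted p = 0.0038), with an oil shift of 0.27. For Cnn1 the difference of the shifts was 0.58 (adjusted p = 0.28), which did not pass.

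Egr2, a zinc-finger immediate early factor that is also on the basal and the Schwann cell lists, read 302, 320 and 313 at 4 h and 998, 602 and 840 at 28 h. The rise of 1.35 (adjusted p = 0.011) took it well above oil, which averaged 238 ± 21.2 at 28 h. The difference from the oil shift of 0.11 was 1.25 (adjusted p = 0.17), which did not pass. Egr2 was the called member among 9 Schwann cell and nerve genes tested, whose median was -0.22. Of 23 immediate early genes tested, 3 rose (Egr2, Ier2, Ier3) and 1 fell (Ccn2), and the median was 0.11 under either treatment. Ier2, a growth factor-induced nuclear protein, read 452, 433 and 585 and then 959, 715 and 764 (log2 0.73, adjusted p = 0.0038; difference from oil 0.72, adjusted p = 0.067).

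Several growth and epithelial genes rose and stood above oil at 28 h. Sdc1 and Ccnd1 started near the oil level, while Id4 started above its 4 h oil arrays of 259, 243 and 273. Sdc1, a cell-surface heparan sulphate proteoglycan, read 624, 642 and 577 at 4 h and 1312, 849 and 1073 at 28 h (log2 0.79, adjusted p = 0.0024), and the difference from oil was 0.94 (adjusted p = 0.013). Its mean was 2597 ± 198 at 76 h of progesterone. Ccnd1, the G1 cyclin D1, read 629, 667 and 791 and then 1275, 1051 and 1022 (log2 0.68, adjusted p = 0.0038; difference from oil 0.83, adjusted p = 0.014). Id4, an inhibitor of basic helix-loop-helix factors, read 310, 359 and 386 and then 728, 467 and 608 (log2 0.76, adjusted p = 0.011; difference from oil 1.07, adjusted p = 0.013). It was the called member among 4 Id genes, whose median was 0.38.

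Igfbp2, which binds insulin-like growth factors, rose from 114 ± 12.6 to 193 ± 27.1 (adjusted p = 0.041). Slco2a1, the prostaglandin transporter, rose from 276 ± 24.8 to 440 ± 66.7 (adjusted p = 0.0038), and Lcn2, the iron-scavenging protein lipocalin 2, from 1307 ± 71.5 to 1978 ± 519 (adjusted p = 0.041). Their shifts under oil were 0.11, -0.15 and -0.16 on the log2 scale, none of them called. The difference from oil passed for Slco2a1 (0.82, adjusted p = 0.014). It did not pass for Igfbp2 (0.65, adjusted p = 0.33) or Lcn2 (0.72, adjusted p = 0.080).

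The signals Wnt4 and Tnfsf11 did not pass. Of 15 progesterone-responsive mammary genes tested, 4 rose (Pgr, Foxa1, Id4, Ccnd1), 1 fell (Cited1) and 10 did not pass, with a median of 0.20 under progesterone and 0.01 under oil. Wnt4 read 159, 168 and 140 at 4 h and 271, 143 and 289 at 28 h, with overlapping arrays (log2 0.53 ± 0.221, SE; adjusted p = 0.30). Its oil arrays were lower, between 66.8 and 103. Tnfsf11 read 44.3, 37.5 and 64.4 and then 64.5, 67.9 and 80.4 (log2 0.57, adjusted p = 0.40). Elf5, an ETS factor of the alveolar lineage, moved by -0.33 (adjusted p = 0.61) and Esr1, the oestrogen receptor, by -0.36 (adjusted p = 0.20). None of 19 WNT and R-spondin genes or of 9 EGF family genes tested was called by limma, with 5 and 1 of them at an unadjusted p under 0.05.

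Several other processes held no call for progesterone. None of 37 mitosis genes (median -0.17; oil 0.47), 29 DNA replication genes (0.05; oil 0.30) and 16 circadian clock genes (-0.04; oil -0.02) was called by limma. At an unadjusted p under 0.05 there were 3, 3 and 3 of them. For mitosis there were 19 of 37 under oil and 22 for the difference of the shifts, beside 2249 and 1205 of all genes tested. The median difference of the mitosis genes was -0.66, and none was called for it. Mitosis sums were 4165.5, 4157.2 and 6314.8 on the 4 h progesterone arrays, highest in replicate 3, and 3580.4 to 5493.5 at 28 h. Of 20 luminal genes, 1 rose (Foxa1) and none fell at the adjusted threshold. Yet 10 of these 20 had an unadjusted limma p under 0.05, beside 1659 of the 12353 genes tested. The luminal shifts ran from -0.89 to 0.78 on the log2 scale, and 13 of the 20 were positive. Of 21 steroid and glucocorticoid response genes, Lcn2 rose and Mt1 fell, and Fkbp5, a known target of the glucocorticoid and progesterone receptors, moved by -0.15 (adjusted p = 0.83).

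**Figure D4:**
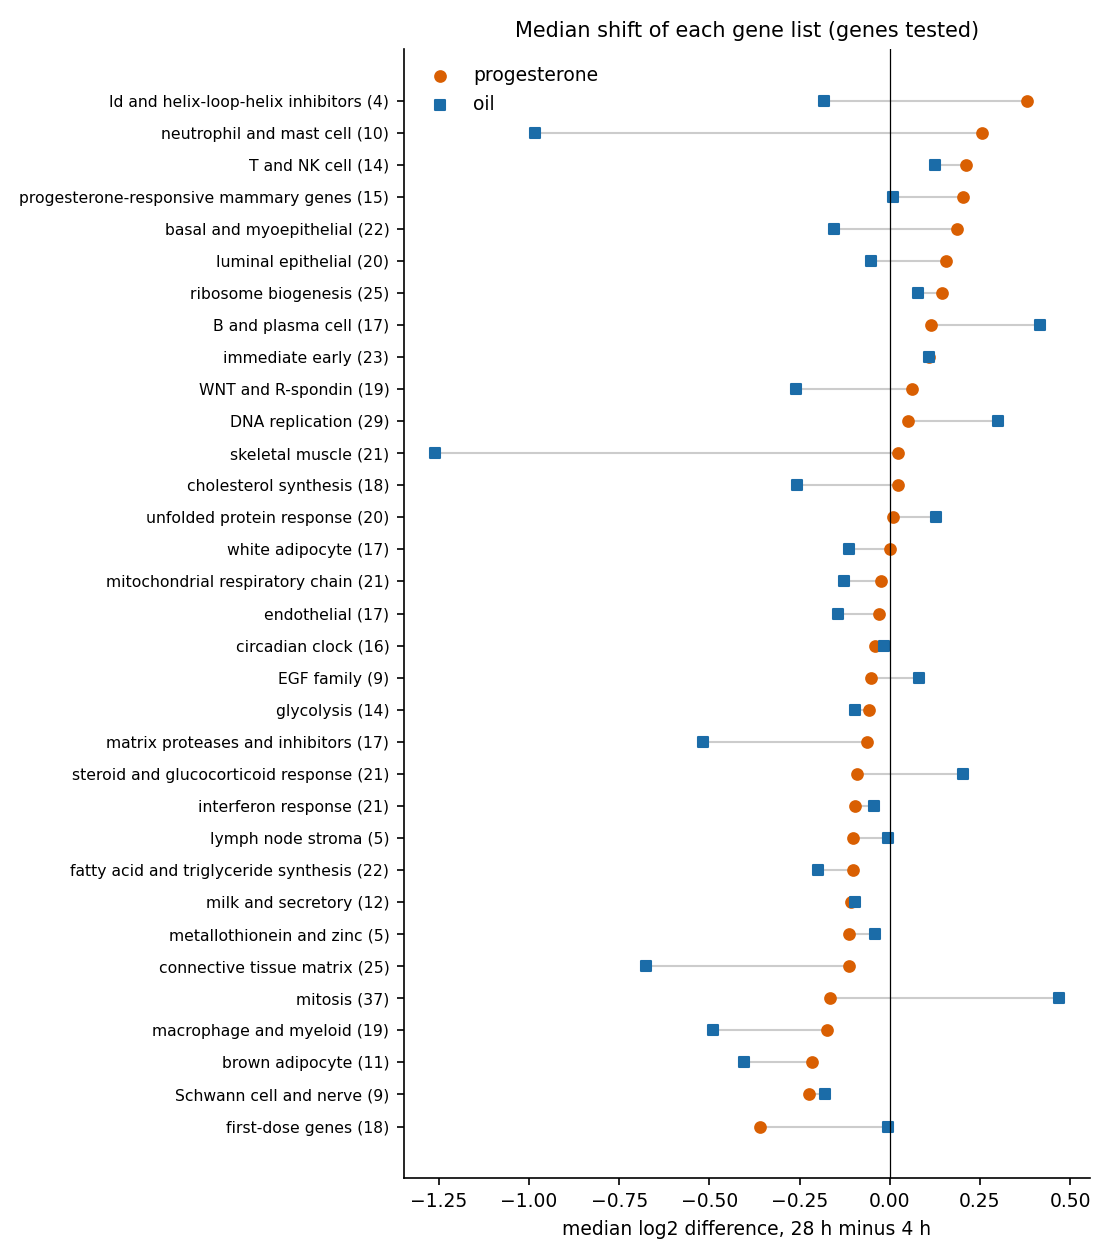
Median log2 difference between 28 h and 4 h for each gene list (y axis, number of genes tested in brackets) under progesterone (orange circles) and oil (blue squares), joined by a grey line. Skeletal muscle lies at 0.02 under progesterone and -1.26 under oil, connective tissue matrix at -0.11 and -0.68, and mitosis at -0.17 and 0.47.

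A milk protein gene and several matrix genes moved in the direction they also took under oil. Csn2, beta-casein, read 8.33, 7.4 and 11.8 at 4 h, near the floor of 7.38 set for all arrays, and 153, 86.3 and 64.7 at 28 h. Under oil it went from 7.34, 5.70 and 12.5 to 1194, 575 and 212. Csn2 was above the array median only on 28 h arrays, 3 of oil and 2 of progesterone, and entered the test through them. Of the 4 h oil arrays 2 lay at or under the floor, so the oil rise, 5.90 on the log2 scale with the floor (adjusted p = 1.5e-07), is a lower bound. The progesterone rise was 3.40 (adjusted p = 0.00079) from levels just above the floor, and it was 2.33 with the floor at the 25th percentile, where the oil rise was 4.81. No size is given for the difference of the 2 shifts. Csn2 was the single gene called under progesterone among 12 milk and secretory genes, of which 2 rose and 1 fell under oil.

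Of 25 connective tissue matrix genes, 2 fell under progesterone (Eln and Lox) and 21 under oil. Other cell type lists moved with the oil fall: 11 of 19 macrophage and myeloid genes fell (median -0.49) and 6 of 17 B and plasma cell genes rose (median 0.42), with none of either called by limma under progesterone (3 and 0 at an unadjusted p under 0.05). The B and plasma cell sums were 22715 to 27316 at 4 h and 34458 to 34724 at 28 h under oil, without overlap. The sums of the 21 macrophage genes on the array were 38283 to 39408 and then 30615 to 36366. Skeletal muscle genes had the lowest oil median of the lists (-1.26; progesterone 0.02). None of the 21 was called under oil, but 17 had an unadjusted limma p under 0.05, beside 2249 of the 12353 genes tested. Their oil sums were 47345 to 54868 at 4 h and 18397 to 27969 at 28 h, without overlap. Of 10 neutrophil and mast cell genes, 4 fell under oil (median -0.98). The part of these lists in the matrix result was not tested. Eln, elastin, read 1077, 1112 and 968 at 4 h and 613, 587 and 411 at 28 h (log2 -0.99, adjusted p = 0.019; oil -1.13). Lox, which cross-links collagen and elastin, fell by 0.81 (adjusted p = 0.022; oil -0.61), and the matrix protease Mmp11 by 1.08 (adjusted p = 0.038; oil -1.19). For these 3 genes the difference of the shifts did not pass. The list medians were -0.11 under progesterone and -0.68 under oil, and the shifts differed for 8 of the 25 genes, each with the higher shift under progesterone. Vcan, the proteoglycan versican, was one of these, at 132, 169 and 186 and then 206, 184 and 257 under progesterone (log2 0.41, adjusted p = 0.45) and 133, 114 and 139 and then 36.0, 51.2 and 81.5 under oil (log2 -1.27, adjusted p = 0.0013). Of the 54 genes with different shifts, 41 were called under oil, 40 of them falling there.

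**Figure D5:**
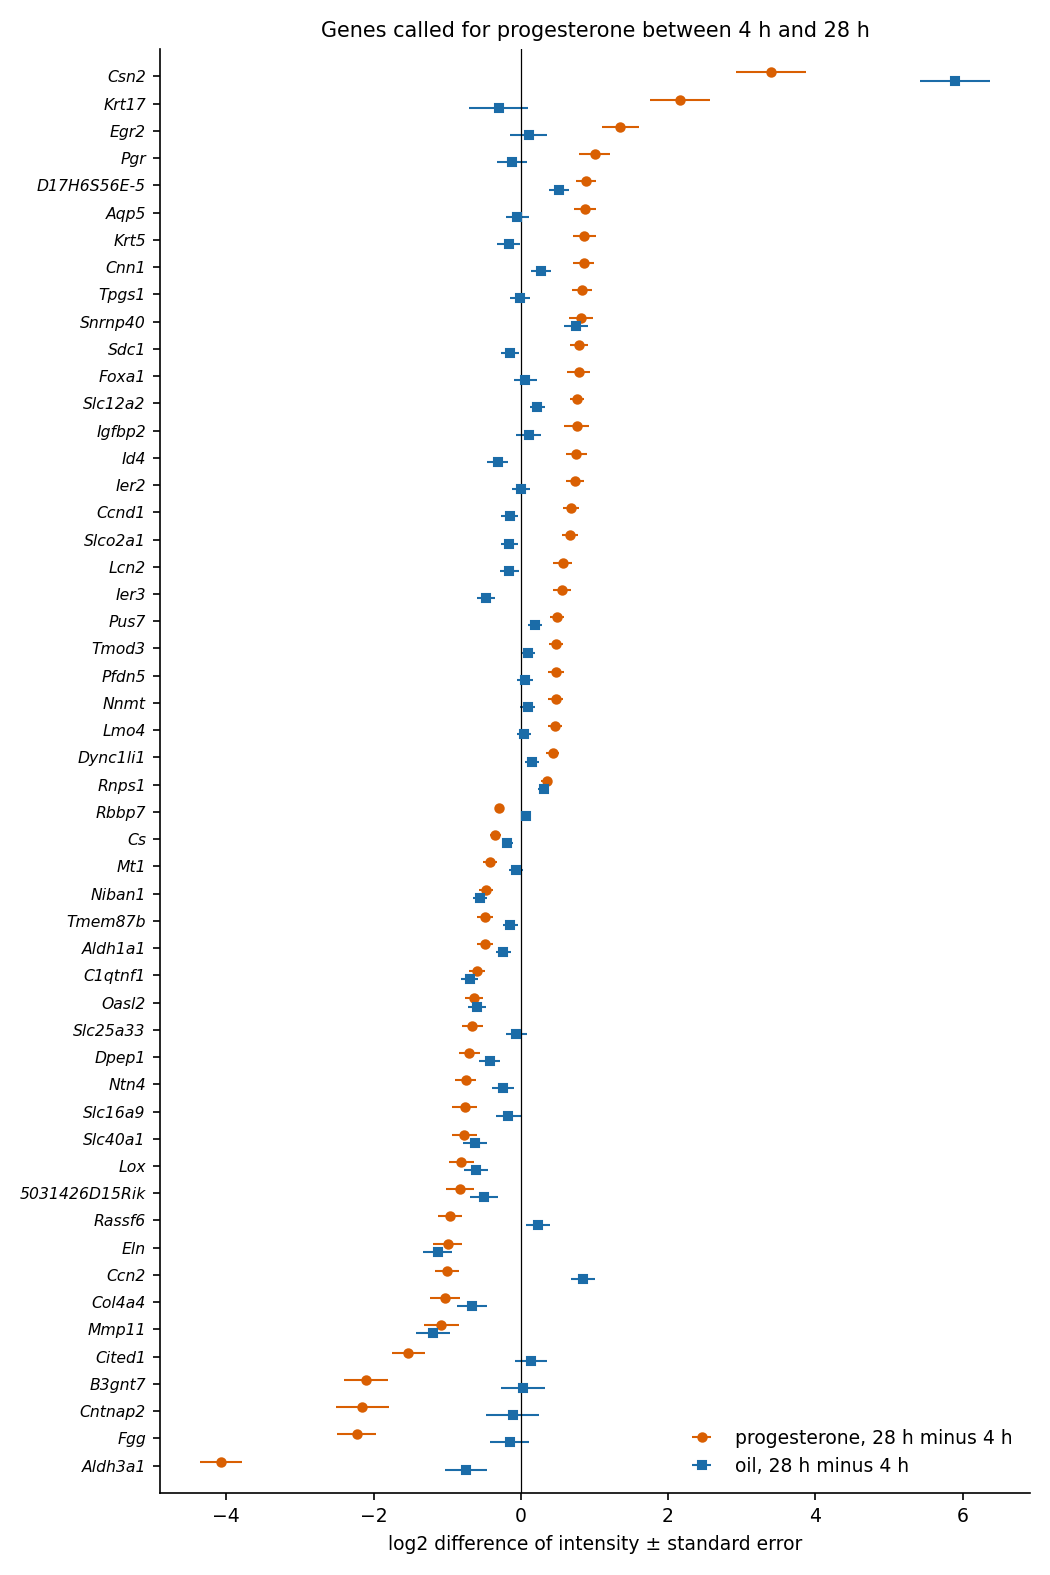
Log2 difference of intensity between 28 h and 4 h (x axis) for the 52 genes called for progesterone (y axis, in order of that difference), with orange circles for progesterone and blue squares for oil; bars are standard errors from the limma fit. Csn2, Snrnp40, Niban1, C1qtnf1, Oasl2, Eln and Mmp11 moved the same way in both treatments, Ccn2 and Ier3 in opposite ways.

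Further called genes had varied roles. Snrnp40, a splicing protein, rose by 0.82 under progesterone and 0.75 under oil, both called. Slc40a1, the iron exporter ferroportin, fell by 0.77 (adjusted p = 0.037), and its oil shift of -0.62 was also called (adjusted p = 0.035). Ntn4, a netrin of basement membranes, fell by 0.75 (adjusted p = 0.014; oil -0.24). Oasl2, an interferon-induced gene, fell by 0.63 and Niban1 by 0.47, close to their oil shifts of -0.59 and -0.55. Col4a4, a basement membrane collagen chain, fell by 1.03 (adjusted p = 0.016; oil -0.66). The difference of the shifts did not pass for Slc40a1, Ntn4 or Col4a4 (adjusted p = 0.89, 0.39 and 0.73). Over 22 called genes with further probe sets, 31 of 37 such probe sets moved the same way, and 6 did not, 1 each of Col4a4, Eln, Ntn4, Cs, Tmem87b and Slc16a9.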

How the data were processed

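RNA from 24 pools of mammary tissue was measured on Affymetrix Mouse Genome 430 2.0 arrays. The deposited table holds 1 linear intensity per probe set and array; how the authors summarized and scaled these intensities is not given in the sources used here. The labels call the arrays biological replicates. Values were raised to a floor of 7.38 (the 10th percentile) and put on the log2 scale. Of 45101 probe sets, 34945 had 1 gene symbol, 932 several and 9160 none in an annotation of 2016, and 64 were controls. Probe sets above the array median on at least 3 of 24 arrays were kept, and the one with the highest mean stood for its gene, which gave 12353 genes. A group-means model over all 24 arrays (limma 3.58.1, mean-variance trend, 16 residual degrees of freedom) gave 3 contrasts, with Benjamini-Hochberg adjustment over all genes and a threshold of 0.05. The number of arrays limits the precision. Named genes were the 15 largest rises and 15 largest falls without overlap, leaving out clone names; up to 5 called members of each of 35 lists; all members of the progesterone-responsive and first-dose lists; the 10 largest differences of shifts and the 5 largest oil shifts in each direction; and 12 fixed genes, of which Areg was not among the genes tested. Called genes outside that rule, such as D17H6S56E-5, Niban1 and C1qtnf1, were named after their values were seen. The comparison, its lists and the named genes were chosen with earlier results of these data known. Alternatives changed the filter, floor, scaling, probe-set choice, variance model, arrays used and replicate numbers. Deviations from the group means correlated at 0.005, -0.248 and -0.168 between same-numbered progesterone arrays of 4 h and 28 h. The values were 0.147, -0.132 and 0.142 for oil, and 0.033, 0.009 and 0.340 between progesterone and oil at 4 h. At 28 h the last comparison gave 0.062, 0.043 and 0.145. With 3 arrays a group, these values cannot settle whether the numbers pair the arrays, and the main model used no pairing. The code was tested on simulated data.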

Additional observations from a re-analysis of the deposited data

Results flagged for a closer look

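The shift between 4 h and 28 h under progesterone differed from the shift under oil for the 23 genes given here, each past an adjusted p of 0.05 in the limma test of the difference. Values are the progesterone shift minus the oil shift on the log2 scale. The genes were named by size or by list, so that they are not all of the 54 that passed. With the Gapdh 3′ to 5′ ratio as a covariate all 23 kept their direction, but 17 lost the call and 6 stayed called (Aldh3a1, Ccn2, Cd248, Ier3, Igfbp6, Sdc1).

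Among the genes given here, the 11 with the largest positive differences each fell under oil. Akr1c18 was chosen among the 5 largest oil falls, so that its fall there was set by the choice. The other 10 were chosen by the size of the difference and form no list. They included Fbln1 (fibulin 1) at 1.93, Spon2 (spondin 2) at 1.83, Timp1 (a metalloprotease inhibitor) at 1.73, Vcan at 1.68, Crispld1 at 1.62, Cd248 (endosialin of fibroblasts and pericytes) at 1.54 and Igfbp6 (a binding protein of insulin-like growth factors) at 1.44. Igfbp6 read 1469, 1362 and 1603 at 4 h and 1491, 1114 and 1606 at 28 h under progesterone, and 1791, 1830.3 and 1657 and then 484, 585 and 796 under oil. Cd209g stood at 1.55, Mcpt4 (a mast cell protease) at 1.51 and Folr2 (a folate receptor of macrophages) at 1.48. Of the lists, 8 of 25 connective tissue matrix genes, 2 of 10 neutrophil and mast cell genes (Mcpt4 and Tpsb2) and 0 of 19 macrophage and myeloid genes (median 0.25; 6 at an unadjusted p under 0.05) were called by limma for the difference. Over all 12353 genes tested, 1205 had an unadjusted limma p under 0.05 for the difference. Akr1c18, which inactivates progesterone, stood at 1.35, with shifts of -0.59 under progesterone and -1.94 under oil. None of these 11 genes was called under progesterone itself.

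A further 6 genes rose under progesterone and had smaller positive differences. They were Id4 at 1.07, Ier3 at 1.03, Krt5 at 1.03, Sdc1 at 0.938, Tpgs1 at 0.845 and Ccnd1 at 0.831. Of 22 basal and myoepithelial genes 2 were called for the difference (Krt5 and Vcan), and Vcan is also counted among the 8 matrix genes. Of 20 luminal genes none was called by limma. At an unadjusted limma p under 0.05 there were 9 basal and 2 luminal genes, beside 1205 of the 12353 genes tested. The lower shift under progesterone was found for Rassf6 at -1.19, Cited1 at -1.67, Ccn2 at -1.85, Fgg at -2.08, B3gnt7 at -2.13 and Aldh3a1 at -3.33. These 12 genes were also called under progesterone alone. Both tests use the same progesterone arrays, and several of the genes were named because of that call. The 2 calls are therefore not independent of each other.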

How the results depend on the processing

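With 1 value per gene, the direction of each of the 52 progesterone shifts held under every alternative run that gave the gene a value, except Cs, at 0.00708 with the mean of its probe sets. With each probe set alone, 1 further probe set each of Cs (0.38), Col4a4 (0.63), Eln (0.17), Ntn4 (0.07), Slc16a9 (0.08) and Tmem87b (0.22) lay above 0 where the gene fell. The 52 progesterone calls became 87 with quantile normalization, 3273 with array weights (1184 higher and 2089 lower), 19 on the 12 arrays of 4 h and 28 h, 7 on the 6 arrays compared, 2 with the Gapdh ratio as a covariate, 200 without the 2 arrays that stood apart, and 11 to 513 without 1 array each. The 472 oil calls became 2253 with array weights (822 higher and 1431 lower), 279 on the 12 arrays, 261 on the 6 oil arrays of those times, 599 without the 2 arrays, and 223 to 542 without 1 array each. The 54 differences of shifts became 34 with quantile normalization, 1580 with array weights (835 higher and 745 lower), 20 on the 12 arrays, 17 with the Gapdh covariate, 157 without the 2 arrays, and 20 to 107 without 1 array each; with no filter on low values and with no variance trend the count was 36. The causes were not tested. A model on fewer arrays has fewer residual degrees of freedom by construction. The labels do not say that same-numbered arrays belong together. With a replicate block 58 genes were called under progesterone, 48 of the 52 among them, 478 under oil and 44 for the difference. Other settings left the total counts within 1.5 times the main ones, though averaging the probe sets of each gene gave 29 higher and 14 lower under progesterone. Signal near the floor limits Csn2 at 4 h.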
